A study of Arabidopsis thaliana with 10 samples.

Results

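IMA1 (AT1G47400) and IMA2 (AT1G47395) are genes of the IRON MAN family of Arabidopsis thaliana, and their transcripts were followed here in roots of wild type (WT, Col) and of the mutant bts-3. Members were taken by the platform annotation, which gave 1 probe set to each gene, so 2 of the 17481 probe sets with at least 1 named gene are described. After 2 weeks on B5 medium, plants spent 3 days (72 h) on medium with iron (+Fe) or without it (-Fe), after which roots were cut from shoots and frozen. There were 2 arrays of WT on +Fe, 2 of WT on -Fe, 3 of bts-3 on +Fe and 3 of bts-3 on -Fe, and these are biological replicates per the labels. Each array is 1 RNA sample hybridised to an Affymetrix chip, and each value is a log2 expression level after RMA, a method that removes background and sets all arrays to a common distribution. A difference of 1 on this scale is a doubling and the small number of arrays limits the precision.

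IMA genes encode short peptides with a conserved C-terminal region. In Arabidopsis the peptides are known to bind BRUTUS (BTS) and its relatives BTSL1 and BTSL2, E3 ubiquitin ligases that restrain the iron-deficiency response. The ligases target bHLH transcription factors such as ILR3 and bHLH115, which switch on further iron-deficiency genes, and IMA peptides that occupy a ligase let these factors act. IMA transcripts are known to increase when iron is short, and they are known from phloem tissue. The mutant is named for BTS, and the lesion of bts-3 is not given in the labels. BTS has no single-gene probe set here, so the genotype labels were not checked by its transcript.

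IMA2 and IMA1 lie next to each other on chromosome 1, with 0 annotated genes between them in RefSeq assembly TAIR10.1. Their coding sequences are known to be alike, and whether probes of one gene also bind transcripts of the other was not tested. None of 6 other loci that may belong to the family had a probe set of its own, and the 2 probe sets that list AT2G30766 also list a neighbouring gene, so they are not used here.

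Arrays of the whole series had lower quartiles between 2.92 and 3.26 and medians between 5.27 and 5.45. PYK10, a beta-glucosidase gene typical of roots, lay between 12.62 and 13.19 on all 10 arrays. Of 5 listed shoot genes, RCA and LHCB4.1 were measured, and their mean level ran from 6.41 to 8.04. No endodermis, phloem or xylem marker among 10 listed had a single-gene probe set, so the tissue in which IMA transcripts arose was not checked. The array of bts-3 -Fe replicate 1 stood apart, with an estimated array weight of 0.356 where the others had 0.861 to 1.52. Member differences in WT, in bts-3, between genotypes on -Fe and between the iron responses are given with and without it. Correlations within bts-3, of deviations and for likeness, and the bts-3 mean differences of other genes, include it.

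Both genes were lowest in WT with iron, and in each genotype both were higher without iron than with it. IMA1 stood at 3.82 and 3.69 on WT +Fe (replicates 1 and 2) and at 5.94 and 7.41 on WT -Fe. In bts-3 the IMA1 level was 4.72, 4.73 and 4.20 on +Fe and 8.17, 5.76 and 4.83 on -Fe (replicates 1, 2 and 3). The -Fe arrays were above the +Fe arrays in each genotype with no overlap, and bts-3 +Fe lay between WT +Fe and WT -Fe.

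IMA2 showed the same arrangement over a wider range. In WT its level was 2.88 and 2.86 with iron, against 6.32 and 8.06 without. In bts-3 it was 4.64, 5.15 and 4.18 on +Fe and 8.77, 6.02 and 5.55 on -Fe. The WT +Fe values of IMA2 lay under the lower quartile of their own arrays (2.96 and 2.98), where RMA compresses differences. Those of IMA1 lay above it.

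**Figure D1:**
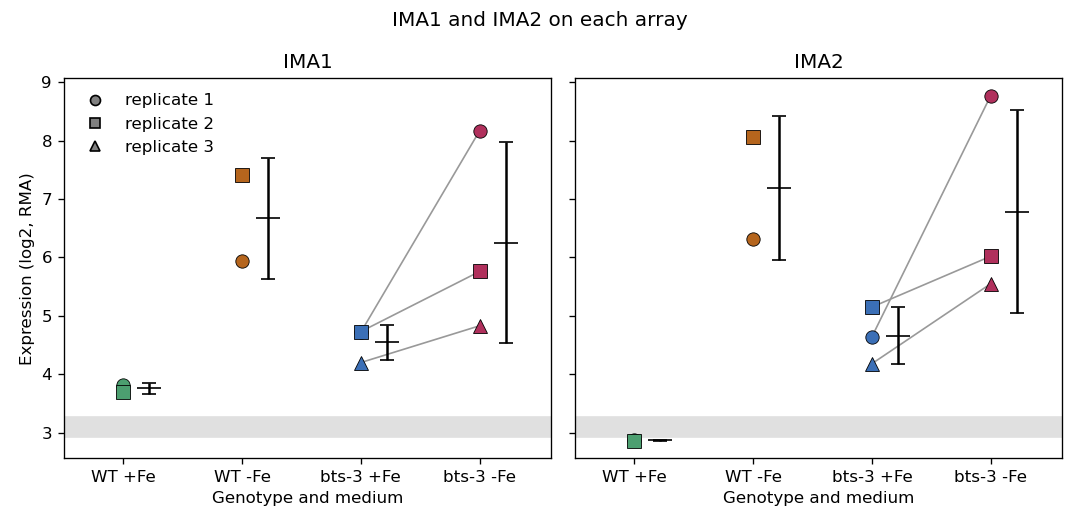
Expression (log2, RMA) of IMA1 and IMA2 on every array, by genotype and medium. Marker shape gives the replicate number, black bars the group mean with its SD (n = 2 for WT, n = 3 for bts-3), grey lines join same-numbered bts-3 arrays, and the grey band spans the lower quartiles of the arrays (2.92 to 3.26). Both genes are lowest on WT +Fe, and bts-3 -Fe replicate 1 is the highest array of all, at 8.17 for IMA1 and 8.77 for IMA2.

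By group means, the order of levels was WT +Fe, bts-3 +Fe, bts-3 -Fe and WT -Fe for both genes. For IMA1 these means were 3.76 ± 0.09, 4.55 ± 0.30, 6.25 ± 1.72 and 6.67 ± 1.04 (SD, n = 2, 3, 3 and 2). For IMA2 they were 2.87 ± 0.01, 4.66 ± 0.49, 6.78 ± 1.74 and 7.19 ± 1.23 (SD, n = 2, 3, 3 and 2). The upper neighbours in this order, bts-3 -Fe and WT -Fe, overlapped in their arrays. The other neighbours did not overlap. The spread was wider on -Fe than on +Fe in both genotypes: the IMA2 range was 0.01 and 0.97 on +Fe and 1.74 and 3.22 on -Fe for WT and bts-3.

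The first comparison asked how WT roots respond to loss of iron. IMA2 was 4.32 higher on -Fe (SE 0.89, 95% interval 2.36 to 6.28) on the log2 scale of the deposited values, rank 12 among 17481 probe sets by size. Its WT +Fe baseline lay under the lower quartile of the arrays and may not be above background, so this value and its rank describe the deposited values and may understate the change. IMA1 was 2.92 higher (SE 0.84, interval 1.05 to 4.78), a 7.56-fold difference that ranked 31. Both WT -Fe arrays were above both WT +Fe arrays for each gene, a separation in this direction that 23.2% of all probe sets showed. These are levels in whole roots, so a change in the share of cells that express a gene and a change in RNA per cell cannot be told apart.

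Neither member passed Benjamini-Hochberg adjustment over all probe sets in a limma fit of all 10 arrays (adjusted p = 0.137 for IMA2 and 0.347 for IMA1), although both had small unadjusted limma p-values (0.000555 and 0.00564). In that fit 0.0286% of probe sets were called. The spread is shared with bts-3 -Fe, where both genes varied most. When only the 4 WT arrays were fitted with limma, both genes were called, with adjusted p = 0.0123 for IMA2 and 0.0354 for IMA1, and so were 0.898% of all probe sets. With all 10 arrays and a block for the bts-3 pairs, IMA2 was called (limma adjusted p = 0.0462, with 0.606% of probe sets called) and IMA1 was not (0.103). Neither gene was called with a replicate block over both genotypes (limma adjusted p = 0.0895 for IMA2 and 0.21 for IMA1). The same held for a block within each genotype (0.0845 and 0.16). Without bts-3 -Fe replicate 1 the adjusted limma p was 0.00785 for IMA2 and 0.0255 for IMA1, with 0.503% called. Over 21 alternatives the adjusted p ran from 0.00785 to 0.89 for IMA2 and from 0.0255 to 1.0 for IMA1, while the difference itself stayed between 3.45 and 5.19 for IMA2 and between 2.18 and 3.66 for IMA1.

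The shoot markers moved with this comparison. The mean of RCA and LHCB4.1 was 8.04 and 7.54 on WT +Fe and 6.80 and 6.41 on WT -Fe. It was 7.48, 7.48 and 7.40 on bts-3 +Fe, and 6.50, 7.19 and 7.54 on bts-3 -Fe. The arrays with the highest IMA levels, bts-3 -Fe replicate 1 and WT -Fe replicate 2, were those with the lowest shoot-marker means, and the part of this in the results was not tested.

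The second comparison asked whether roots of bts-3 still respond to loss of iron. Both genes were higher on -Fe, IMA2 by 2.12 (SE 0.72, 95% interval 0.52 to 3.73) and IMA1 by 1.70 (SE 0.69, interval 0.18 to 3.22). These are 4.36-fold and 3.25-fold differences, and they ranked 6 and 19 by size among the 17481 probe sets. All 3 -Fe arrays lay above all 3 +Fe arrays for both genes, a separation that 4.98% of all probe sets showed in this direction. Neither gene was called in limma (adjusted p = 0.727 and 0.933, unadjusted p = 0.0142 and 0.0321 for IMA2 and IMA1), nor under any of 21 alternatives, in which the adjusted p stayed at or above 0.299 and 0.356. Over all probe sets, 0.0229% were called.

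Same-numbered bts-3 arrays deviated together, so the response can be read pair by pair. IMA2 was higher on -Fe by 4.13 in pair 1, 0.87 in pair 2 and 1.37 in pair 3. IMA1 was higher by 3.44, 1.02 and 0.63 in the same pairs. Each gene was thus higher on -Fe in all 3 pairs, as were 17% of all probe sets, and pair 1 gave most of the mean. The smallest of the 3 pair differences ranked 35 for IMA2 and 79 for IMA1 among 17481 probe sets, a measure chosen after the values had been seen. Without bts-3 -Fe replicate 1 the limma difference was 1.13 for IMA2 (SE 0.45) and 0.74 for IMA1 (SE 0.41), with adjusted p = 0.696 and 0.9.

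With iron present, the third comparison set bts-3 against WT. There IMA2 was 1.79 higher in the mutant (SE 0.81, 95% interval 0.00 to 3.58), again from the WT +Fe baseline that may not be above background, so that no fold is given. IMA1 was 0.80 higher (SE 0.77, interval -0.91 to 2.50), a 1.74-fold difference. All 3 bts-3 arrays were above both WT arrays for each gene, as for 13.5% of all probe sets. With limma over all 10 arrays neither gene was called (adjusted p = 0.562 and 0.865, with 0.269% of probe sets called). These SEs and intervals share the spread of all 10 arrays, which was wider on -Fe. When only the 5 +Fe arrays were fitted the SE was 0.27 for IMA2 and 0.22 for IMA1. In that fit IMA2 was called (limma adjusted p = 0.039, with 0.578% of probe sets called) and IMA1 was not. Over 18 alternatives the IMA2 adjusted p ran from 0.039 to 0.999. Of 3 listed root hair markers, EXPA7 and EXPA18 were measured, and their means were lower in bts-3 on each medium. Their bts-3 minus WT differences were -0.65 (SE 0.28) and -0.95 (SE 0.45) on +Fe, and -0.62 (SE 0.28) and -0.56 (SE 0.45) on -Fe. Neither marker was called, and their part in the IMA differences was not tested.

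On -Fe, which the fourth comparison addressed, no difference between the genotypes was resolved. IMA1 was lower in bts-3 by value, at -0.42 (SE 0.77, 95% interval -2.13 to 1.28), and IMA2 at -0.41 (SE 0.81, interval -2.20 to 1.38), so differences of up to about the size of the intervals in either direction remain possible. The limma adjusted p was 0.928 and 0.937, and over all probe sets 0% were called. Of the 17481 probe sets, 1163 had an unadjusted limma p under 0.05, a count that includes those that pass with no difference. The bts-3 arrays lay on both sides of the WT arrays. The sign rested on single arrays: without bts-3 -Fe replicate 3 the values were 0.29 and 0.21, without WT -Fe replicate 2 they were 0.31 and 0.46, and with the replicate block both were 0.02. Without bts-3 -Fe replicate 1 they were -1.38 and -1.40, with adjusted p = 0.212 and 0.227.

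The fifth comparison, the difference of the iron responses (interaction), asked whether bts-3 responds less. The response was smaller in bts-3 by value, by -1.22 for IMA1 (SE 1.09, 95% interval -3.63 to 1.19) and -2.20 for IMA2 (SE 1.15, interval -4.73 to 0.34). Neither was called in limma (adjusted p = 0.998 for both, with 0.00572% of probe sets called). Under 20 alternatives the sign stayed negative for both genes, between -2.18 and -0.48 for IMA1 and between -3.19 and -1.33 for IMA2. The widest values came without bts-3 -Fe replicate 1 (limma adjusted p = 0.277 and 0.15), and the smallest without WT -Fe replicate 2. For IMA2 the main value and all alternatives include the WT +Fe baseline that may not be above background.

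**Figure D2:**
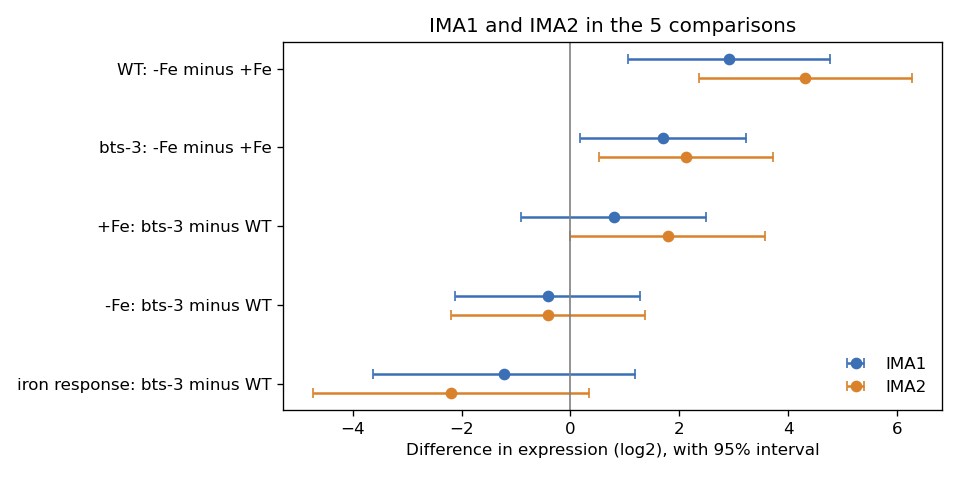
Differences in expression (log2) of IMA1 and IMA2 in the 5 comparisons from the limma fit of all 10 arrays, with 95% intervals. The intervals of both genes exclude 0 for -Fe against +Fe in WT and in bts-3, before any adjustment over probe sets, and include 0 for bts-3 against WT on -Fe and for the difference of the responses.

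IMA1 and IMA2 went up and down together array by array. Their levels had the same order on all 10 arrays (Spearman's rho = 1.0, permutation p = 2e-05, the smallest that 100000 permutations give), with Pearson's r = 0.977 (permutation p = 2e-05). Pearson's r was 0.953 without bts-3 -Fe replicate 1 and WT -Fe replicate 2, the arrays farthest from the IMA1 median, so the relation did not rest on them. With bts-3 -Fe replicate 1 alone left out it was 0.969. Within the 6 bts-3 arrays r was 0.985 and rho 1.0 (exact permutation p = 0.00278 for each), values that include that array. These permutations treat the arrays as exchangeable, though the arrays fall in groups set apart by medium or genotype. A response that both genes share lowers these p-values, so they do not measure whether the genes vary together within groups. Deviations from the group means, which leave out the effect of medium and genotype, correlated at r = 0.982 over 10 arrays, a description without a test. The largest of these deviations were those of bts-3 -Fe replicate 1.

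The deviations of the genes were close on the -Fe arrays that deviated most. On bts-3 -Fe replicate 1 they were 1.92 for IMA1 and 1.99 for IMA2 above the group mean. On WT -Fe replicate 2 they were 0.74 and 0.87. On +Fe, where deviations were small, they matched less, with 0.17 and -0.02 for replicate 1 of the bts-3 arrays and 0.18 and 0.49 for replicate 2. Among the 16573 other single-gene probe sets matched to RefSeq, the probe set most like each member was that of the other member.

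**Figure D3:**
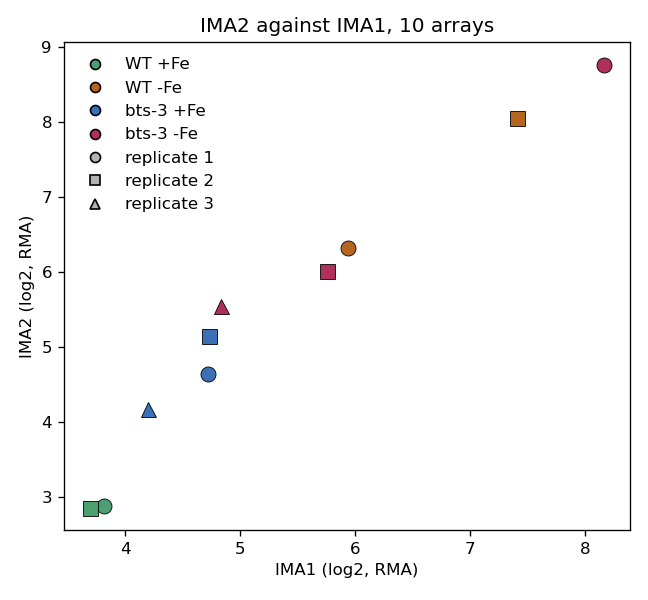
IMA2 against IMA1 (both log2, RMA) on the 10 arrays, coloured by group and shaped by replicate number. The arrays lie along 1 line from WT +Fe (3.69 and 2.86 at the lowest) to bts-3 -Fe replicate 1 (8.17 and 8.77), in the same order for both genes.

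The genes differed in the size of their changes by value. The difference IMA2 minus IMA1 was -0.94 and -0.83 on the WT +Fe arrays. It was 0.39 and 0.65 on WT -Fe, so the WT iron response of IMA2 exceeded that of IMA1 by 1.40. In bts-3 the same excess was 0.42, from a mean of 0.10 ± 0.27 on +Fe to 0.53 ± 0.23 on -Fe (SD, n = 3 each). By numbered pair it was 0.69, -0.15 and 0.74, so its sign differed between pairs. Between the genotypes it was 0.99 on +Fe and 0.01 on -Fe. The arrays did not overlap for WT -Fe against +Fe or for bts-3 against WT on +Fe. Exact two-sided permutation tests of these 4 differences gave adjusted p = 0.444, 0.4, 0.4 and 1.0 in the order given, and did not use the pairs. The groups without overlap are the most extreme split of their arrays. The WT test, with 2 against 2 arrays, and that of bts-3 against WT on +Fe thus had the smallest p their designs allow. The unadjusted p cannot go below 0.1 in any of the 4 tests, so none could pass. IMA2 was near the floor of the arrays on WT +Fe alone, and the part of that in these differences was not tested.

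Genes that act around the IMA peptides were listed by role with earlier results of these data known, and 13 of 43 had a single-gene probe set. The BTS-like ligases BTSL1 and BTSL2, to which the peptides bind, were measured and BTS was not. On WT -Fe BTSL1 was higher by 2.40 (SE 0.41) and BTSL2 by 1.95 (SE 0.48), and neither was called (limma adjusted p = 0.0963 and 0.242). In bts-3 their -Fe minus +Fe differences were 0.21 (SE 0.34) and 0.37 (SE 0.39), against 1.70 for IMA1 and 2.12 for IMA2. By pair, BTSL1 had 0.71, 0.02 and -0.11, and BTSL2 had 0.86, 0.37 and -0.12.

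All 5 listed upstream bHLH factors were measured, bHLH34, bHLH104, ILR3, bHLH115 and bHLH121. None of these 5 passed the test in any comparison. Their WT differences ran from -0.70 (bHLH34) to 0.56 (ILR3), and their bts-3 differences from -0.07 (bHLH104) to 0.24 (bHLH115).

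Of the induced bHLH factors 2 of 7 were measured. BHLH101, an activator of iron uptake genes, was called as higher on WT -Fe (4.46, SE 0.54, limma adjusted p = 0.0378) and on bts-3 +Fe against WT +Fe (3.71, SE 0.50, adjusted p = 0.0157). Its WT call was lost without any 1 of the WT arrays (limma adjusted p from 0.254 to 0.457), when replicate 1 of bts-3 +Fe was left out (0.0568) and when replicate 2 of bts-3 -Fe was (0.0688). Its +Fe call was lost without either WT +Fe array (0.269 and 0.199) and without bts-3 +Fe replicate 1 (0.0871). The same differences of IMA2 were 4.32 and 1.79, and these comparisons share the WT +Fe arrays. BHLH101 stood at 7.27, 7.78 and 6.0 on bts-3 +Fe and at 7.78 and 7.77 on WT -Fe, so these groups overlapped. IMA1 and IMA2 on bts-3 +Fe were below both WT -Fe arrays, as were 8 of the 13 role genes, BTSL1 and BTSL2 among them, and 20.5% of all probe sets. The bts-3 pair differences of BHLH101 were 0.77, -0.64 and 0.59. PYE, a bHLH factor that restrains part of the response, had 0.92 in WT (SE 0.31) and 0.10 in bts-3 (SE 0.25).

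The list headed iron uptake and coumarin genes also took in genes outside that heading, such as AT3G58060 (MTP8). In it 4 of 12 genes were measured, and none was called in any comparison. BGLU42, a beta-glucosidase, was 4.34 higher on WT -Fe (SE 0.86) and had pair differences of 1.56, 0.64 and -0.27 in bts-3. AT3G12900 was 6.19 higher on WT -Fe (SE 1.14), and its pair differences were 1.26, 0.67 and -1.64. AT3G58060 was 5.70 higher on WT -Fe (SE 1.02), with pair differences of 1.94, 1.15 and 0.19. AT1G28680 has 2 probe sets, and the brighter one was 1.11 higher on WT -Fe (the other 1.24).

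Over the 13 genes, 1 of 13 (AT3G58060) was higher on -Fe in all 3 bts-3 pairs, against 17% of all probe sets, and IMA1 and IMA2 were higher in all 3. In pair 2 AT3G58060, at 1.15, exceeded both IMA1 (1.02) and IMA2 (0.87). In pair 3, where IMA2 was higher by 1.37 and IMA1 by 0.63, the largest value among the 13 was 0.59 for BHLH101. The median difference of the 13 was 1.11 in WT and 0.21 in bts-3, against 0.013 and 0.022 over all probe sets. Whether IMA genes respond more than these genes in bts-3 was not tested. The lists of iron movement and iron storage had 0 measured genes.

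**Figure D4:**
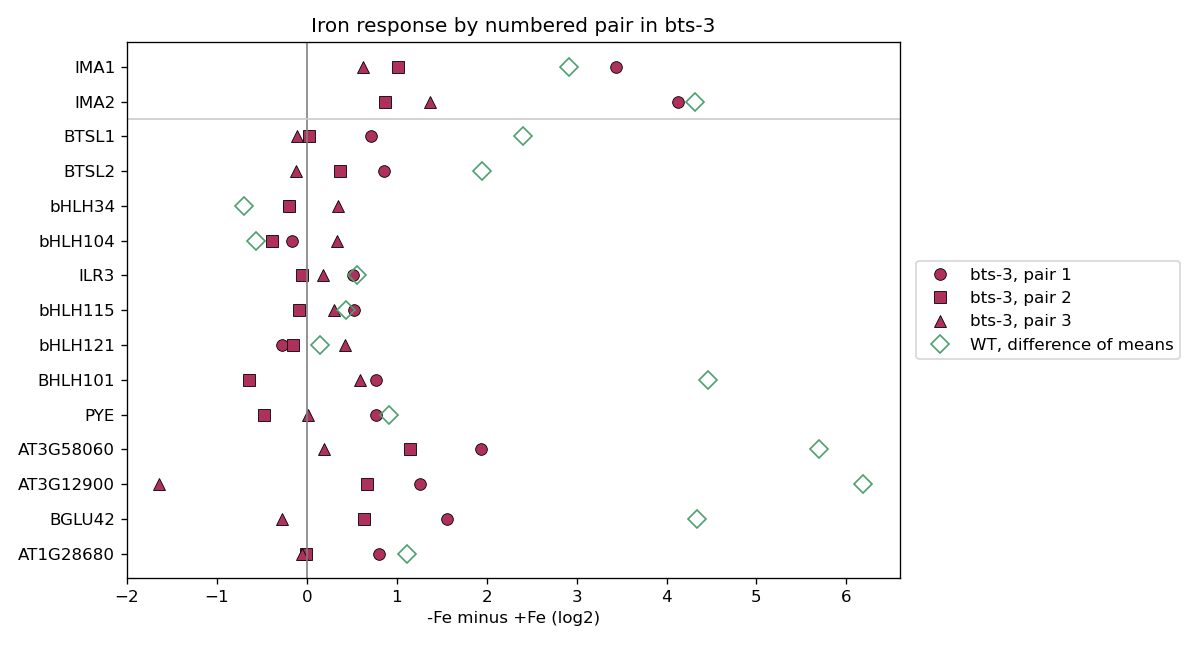
Differences of -Fe minus +Fe (log2) for IMA1, IMA2 and the 13 measured genes of the role lists, for each same-numbered pair of bts-3 arrays (filled markers) and for the WT group means (open diamonds). IMA1 and IMA2 are above 0 in all 3 pairs (0.63 to 4.13), while for AT3G12900 the pairs run from -1.64 to 1.26 beside a WT difference of 6.19.

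The spread between the WT -Fe arrays was wider for the IMA genes than for the genes of these lists. Replicate 2 exceeded replicate 1 by 1.48 for IMA1 and 1.74 for IMA2, which ranked 207 and 110 by size among the 17481 probe sets. For the 13 role genes the same difference lay between -0.33 and 0.46, with -0.01 for BHLH101 and -0.02 for AT3G12900. This contrast was noticed in the values and rests on 2 arrays, so no test was made. Of the genes picked below for likeness to the members, AT5G05250 stood at 6.22 and 7.02 on replicates 1 and 2. AT4G11393 stood at 7.66 and 8.17 there, and the rest of those genes lay closer together.

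The genes whose pattern was most like the members were taken by Pearson's r over the 10 arrays, the 6 highest for each member, as a description. For IMA2 the closest was AT5G05250 (r = 0.973), which was also among the 6 for IMA1 (r = 0.942). AT5G05250 stood at 3.15 ± 0.46 with iron and 6.62 ± 0.56 without it in WT (SD, n = 2 for both), and at 4.49 ± 0.24 and 5.78 ± 0.92 in bts-3 (SD, n = 3 for both). Its pair differences in bts-3 were 2.24, 0.75 and 0.87, and its WT difference was 3.47 (SE 0.50, limma adjusted p = 0.0594). On WT +Fe replicate 2 it stood at 2.82, under the lower quartile of that array (2.98), and on replicate 1 at 3.47, above it (2.96).

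AT4G11393 (r = 0.945 with IMA1) and AT1G12030 (r = 0.944 with IMA1 and 0.937 with IMA2) also had wide ranges. AT4G11393 was 3.45 higher on WT -Fe and had pair differences of 2.16, 0.66 and 0.53 in bts-3. AT1G12030 was 2.39 higher in WT, and its pair differences of 3.34, 0.12 and -0.16 show that bts-3 -Fe replicate 1 carried its bts-3 response. The mean of AT1G12030 on WT +Fe was 2.94, near the lower quartiles of the arrays.

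The remaining genes followed the same shape with far smaller differences. AT3G09990 was like both members (r = 0.959 and 0.929) with a WT difference of 0.66. For IMA1 alone the list held AT3G07270 and AT1G71680, with WT differences of 0.87 and 0.45. For IMA2 alone it held AT3G25950, NdhN and AT5G07600, with WT differences of 0.38, 0.49 and 0.43. NdhN encodes a subunit of the chloroplast NADH dehydrogenase-like complex. Apart from AT3G07270, whose mean on WT +Fe was 9.27, these had WT +Fe means from 2.36 to 3.08, near the lower quartiles of the arrays. None of the 9 genes was called in any comparison.

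**Figure D5:**
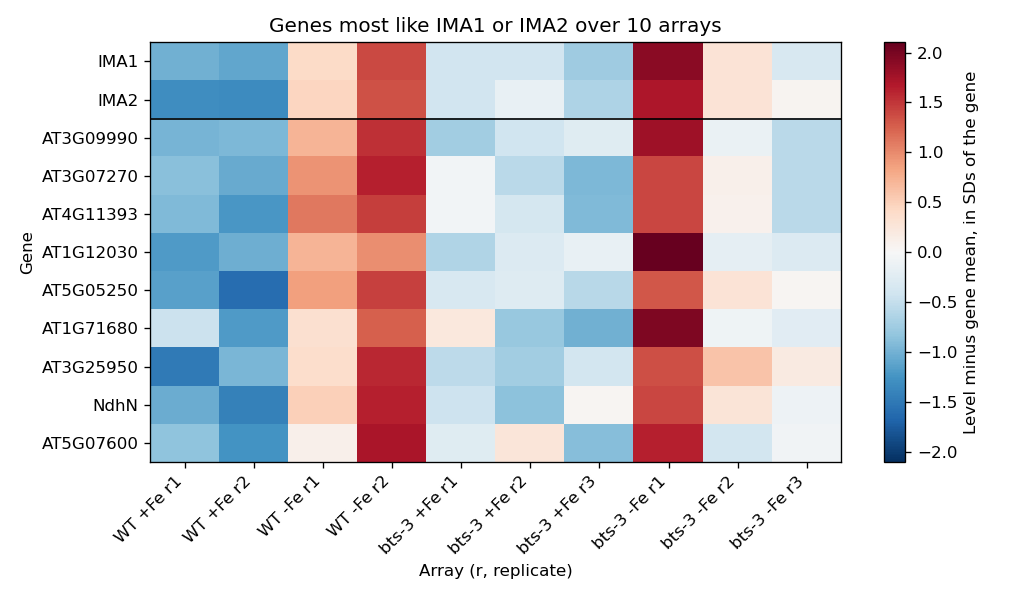
Level on each array minus the gene's mean over 10 arrays, in SDs of that gene, for IMA1, IMA2 (above the line) and the 9 genes most like either. Every row is lowest on a WT +Fe array and highest on WT -Fe replicate 2 or bts-3 -Fe replicate 1. The scaling hides size: the WT difference is 4.32 for IMA2 and 0.38 for AT3G25950.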

How the data were processed

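Root RNA of 10 samples (100 ng each) was measured on Affymetrix arrays. The deposited values are log2 expression levels per probe set, which the authors made in Affymetrix Expression Console by RMA, as the submitters' processing notes record; versions and genome build are not given in the sources used here. Of 28583 probe sets, 17481 have a named gene (16722 a single one) and were tested without a filter. Group means of all 10 arrays were fitted with limma 3.58.1 in R 4.3.3 (lmFit, eBayes), two-sided, in 5 comparisons, with calls at a Benjamini-Hochberg adjusted p under 0.05. The fit has 6 residual and 4.57 prior degrees of freedom. It was tested on simulated data with independent arrays and the same spread in every group. The unequal spread of the members between groups and the bts-3 pairs were not simulated. Permutation tests used SciPy 1.17.1.

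Members and lists were chosen with earlier results of these data known. Named genes are the members, measured genes of the role lists and the 6 genes most like each member by Pearson's r. For a gene with several probe sets the one with the higher mean level was used. In bts-3, same-numbered arrays had correlated deviations (r = 0.302, 0.511 and 0.389 across probe sets), so the numbers pair these samples on the evidence of the values; the WT numbers did not (r = -0.107). Alternatives changed the normalization, the filter, the probe sets and arrays fitted, the block, the weights and the prior, and left out each array in turn.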

Additional observations from a re-analysis of the deposited data

How the results depend on the processing

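The 10 member differences were refitted under 196 alternatives in all, of which 183 kept the direction and the side of the threshold, 7 crossed to an adjusted p under 0.05 and 6 changed sign. Calls gained, at unchanged differences of 4.32 (IMA2) and 2.92 (IMA1) in WT, came for both genes from the WT arrays alone and without bts-3 -Fe replicate 1. For IMA2 at 4.32 they also came with array weights (adjusted p = 0.017) and with the replicate block in bts-3 alone (adjusted p = 0.0462), and at 1.79 from the +Fe arrays alone. Signs changed for bts-3 against WT on -Fe: with the replicate block (0.02 for both genes), leaving out WT -Fe replicate 2 (0.31 and 0.46) or replicate 3 of bts-3 -Fe (0.29 and 0.21). The block changed no other call of the members. The excess of IMA2 over IMA1 in that comparison, 0.01, was -0.12 without WT -Fe replicate 1, and -0.02 and -0.08 when replicates 1 and 3 of bts-3 -Fe were left out.

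Leaving out each array in turn gave ranges, for IMA1 and IMA2, of 2.18 to 3.66 and 3.45 to 5.19 in WT, 0.74 to 2.41 and 1.13 to 2.74 in bts-3, 0.71 to 0.97 and 1.54 to 2.03 for bts-3 against WT on +Fe, -1.38 to 0.31 and -1.40 to 0.46 on -Fe, and -2.18 to -0.48 and -3.19 to -1.33 for the interaction. Pearson's r between the genes stayed between 0.969 and 0.986. The excess of IMA2 over IMA1 ran from 1.27 to 1.53, 0.33 to 0.58, 0.83 to 1.09 and -0.12 to 0.14 in the first 4 comparisons.

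Counts of called probe sets in the 5 comparisons were 5, 4, 47, 0 and 1. Leaving out each array gave 0 to 88, 1 to 18, 4 to 93, 0 to 8 and 0 to 7. With the replicate block the counts were 80, 17, 118, 0 and 18, and with array weights 101, 10, 279, 0 and 3. With all probe sets the bts-3 response, bts-3 against WT on +Fe and the interaction had 10, 78 and 0. Without the dimmest 50% of probe sets these were 1, 26 and 0, with 3 for the WT response. The interaction count was also 0 without the dimmest 25%, after normalizing again and with an eBayes trend, which gave 10 for the WT response. With WT numbers crossed, an alternative chosen after seeing the data, a block within genotype called 92, 35 and 20 for the WT response, the bts-3 response and the interaction, against 64, 26 and 9 uncrossed and 106, 44 and 35 with the block in bts-3 alone. The cause of these shifts was not tested. WT groups of 2 arrays limit what can be resolved, and IMA2 on WT +Fe is near the lowest signals.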
